A study of Mus musculus and Homo sapiens with 19 samples.

Results

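MDA-MB-231, a line of human triple-negative breast cancer cells, was compared between libraries labelled as overexpressing PHGDH and control libraries. The comparison used 6 of the 19 libraries of the series, chosen by their labels: 3 control libraries and 3 libraries of cells transduced with PHGDH cDNA in the pLHCX vector. The OE-labelled libraries (the name used here for the 3 labelled PHGDH-overexpressing) and the controls came from the same line, and whether the controls carried an empty vector was not stated in the labels. The column names of the deposited table call the controls SCR. The remaining 13 libraries were mouse cells and were not used. RNA had been extracted from freshly collected cells and sequenced from poly(A) libraries as 50 bp single-end reads. The study addresses uneven PHGDH levels among breast cancer cells, dissemination and metastasis. No label says that replicates of a group were separate cultures, or that the transduced cells were more than 1 pool or clone, so the tests weigh differences against the spread among these 6 libraries, and that spread may be technical.

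PHGDH encodes phosphoglycerate dehydrogenase, the first enzyme of serine synthesis from the glycolytic intermediate 3-phosphoglycerate. PSAT1 and PSPH carry out the remaining steps. Serine is converted to glycine by SHMT1 in the cytosol and SHMT2 in mitochondria, and the carbon unit released enters the folate cycle, which feeds nucleotide synthesis and methylation. MDA-MB-231 is known as a line with low PHGDH that draws on serine from the medium.

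The libraries held 19.5 M to 23.8 M counts in genes. Levels are given as counts per 1000000 (CPM), scaled with trimmed-mean (TMM) factors. These factors were 1.01 to 1.03 in the controls and 0.974 to 0.984 in the OE-labelled libraries. CPM is not corrected for gene length, so levels are compared between libraries and never between genes. The 10 most abundant genes took 3.88% to 4.19% of control counts and 4.79% to 5.10% of counts in the OE-labelled libraries. The first principal component held 73.8% of the variance and separated the groups. Of 10 marker genes of the line, 9 were over 10 CPM in each of the 6 libraries, among them VIM, CD44 and AXL, while SPARC was under 1 CPM. Of 12 luminal markers, 5 were under 1 CPM in every library, ESR1 included, and 4 were over 10 CPM in every library. KRT19 was among the latter. The luminal list summed to 385 to 397 CPM in the controls and 425 to 471 CPM in the OE-labelled libraries. KRT19 was the largest part of it, with means of 192 and 220 CPM. Of the 7 tested luminal markers 3 rose and 2 fell, among them SPDEF, from a mean of 38.8 to 17.7 CPM. The summed endothelial list was at 198 to 199 CPM in the controls and 178 to 190 CPM in the OE-labelled libraries, with 6 of 12 markers under 1 CPM. Most of the endothelial sum came from ESAM, with means of 136 and 111 CPM, and of the 6 tested markers 3 rose and 3 fell. The fibroblast list summed to 7.96 to 10.4 CPM against 11.6 to 13.2 CPM, with 8 of 10 under 1 CPM. The leukocyte list summed to 109 to 116 CPM against 115 to 123 CPM, with 7 of 11 under 1 CPM and nearly all of the sum from CD68, a lysosomal protein.

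PHGDH mRNA went against the label. PHGDH (ENSG00000092621) measured 15.5, 15.7 and 18.3 CPM in controls 1 to 3 against 5.99, 4.53 and 5.71 CPM in OE-labelled libraries 1 to 3. Its raw counts were 376, 313 and 365 against 116, 105 and 109. Each OE-labelled library lay below each control. PHGDH fell by 1.61 on the log2 scale (standard error 0.12, adjusted p = 5.76e-10, edgeR quasi-likelihood test with Benjamini-Hochberg adjustment). Whether the transduced cDNA holds the parts of the transcript that were counted was not given in the sources used here, so the count of PHGDH does not by itself measure the vector. From the files, an exchange of the labels between the groups cannot be told apart from a fall of the counted PHGDH transcript. With such a fall, the cells may also hold a cDNA that the counting does not see. A difference of pool or clone cannot be told apart either, and an exchange would turn every direction below. All directions given from here on are those of the libraries labelled PHGDH-overexpressing against those labelled control.

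The later enzymes of serine synthesis moved little. PSAT1, the aminotransferase of the pathway, had 128, 146 and 145 CPM in the controls and 159.6, 159.8 and 157 CPM in the OE-labelled libraries. The groups did not overlap, and PSAT1 rose by 0.18 (adjusted p = 0.0198, edgeR), a call that was lost without control 1, without OE-labelled library 1 and with scaling by library totals. PSPH, the phosphatase of the last step, had a log2 fold change of 0.14 (standard error 0.077) and was not called. Summed over the 3 enzymes, the level was 192.7 ± 11.8 CPM (SD, n = 3) in the controls and 204 ± 1.68 CPM (SD, n = 3) in the OE-labelled libraries.

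Both serine hydroxymethyltransferases rose. SHMT1, the cytosolic enzyme, measured 39.6, 39.0 and 38.4 CPM in the controls against 72.9, 67.8 and 73.3 CPM in the OE-labelled libraries, with a wide gap between the groups (log2 fold change 0.87, standard error 0.068, adjusted p = 7.81e-10, edgeR). SHMT2, the mitochondrial enzyme, went from 218, 218 and 220.1 CPM to 319, 317 and 348 CPM, a rise of 0.59. No control reached the lowest OE-labelled library for either gene. Of the 26 tested members of the folate one-carbon list, 9 rose, 7 fell and 10 were not called. So 61.5% were called against 44.5% of the 17663 genes tested. More abundant genes were called more often: 52.8% at 20 to 100 CPM and 61.8% at 100 to 500 CPM. The median log2 fold change of the list was 0.06, beside -0.01 for all genes tested.

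The folate members that rose also included the cytosolic trifunctional enzyme MTHFD1 (0.33), the folate importer SLC19A1 (0.49) and FPGS (0.48), which adds the glutamate tail that keeps folates in the cell. Those that fell included GGH, which removes that tail (-0.58, from 50.7, 55.6 and 60.4 to 36.8, 39.2 and 35.1 CPM), the mitochondrial folate carrier SLC25A32 (-0.42), MTHFD2L (-0.42) and the methionine adenosyltransferase subunits MAT2A (-0.29) and MAT2B (-0.27). The MTHFD2L call was lost without control 2. The mitochondrial folate enzymes MTHFD2 (0.02, standard error 0.073) and MTHFD1L (0.11, standard error 0.066) were not called. Thus SHMT1 and SHMT2 rose, while of the mitochondrial enzymes after them MTHFD2 and MTHFD1L were not called and MTHFD2L fell.

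**Figure D1:**
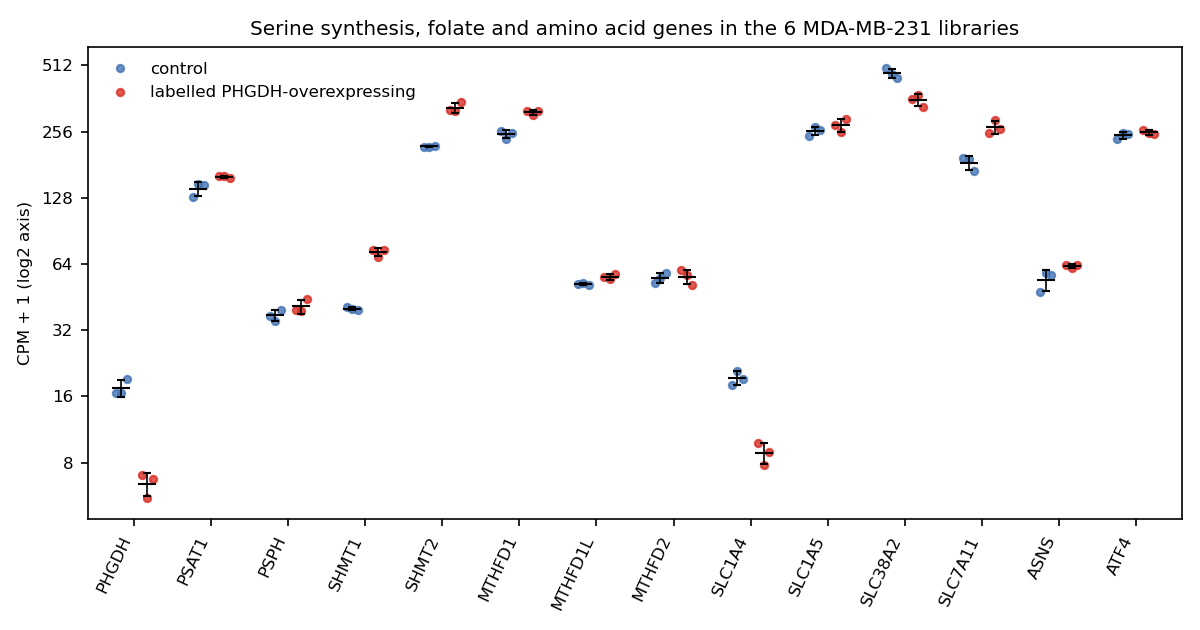
CPM plus 1 on a log2 axis for 14 genes of serine synthesis, the folate cycle and amino acid handling, 1 point per library, with the mean and SD of each group of 3 libraries. PHGDH and SLC1A4 lie lower in the OE-labelled libraries (red) than in the controls (blue), SHMT1 and SHMT2 lie higher, and the groups of SLC1A5, MTHFD2 and ATF4 overlap.

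Across all genes, edgeR called 7864 of 17663 (44.5%, adjusted p threshold 0.05): 3816 were higher in the OE-labelled libraries (21.6%) and 4048 were lower (22.9%). Scaling by library totals alone gave 3053 higher and 4900 lower, so the split between directions depends on the scaling. Most calls were small: 5332 were under 1.5-fold, and the median absolute log2 fold change of the called genes was 0.43. At 2-fold or more, 5.79% were called: 540 genes were higher (3.06%) and 482 lower (2.73%). Of these, 119 and 89 averaged 10 CPM or more over the 6 libraries. Groups did not overlap in CPM for 9265 genes (52.5%). Among the 245 genes over 500 CPM, 121 rose and 35 fell, with a median log2 fold change of 0.13. Against this background, a gene list in which nearly 44.5% of members are called does not stand apart from the rest of the transcriptome. The share called also grew with level, from 29.8% at 1 to 5 CPM to 61.8% at 100 to 500 CPM. For lists of abundant genes, a share above 44.5% therefore does not by itself set the list apart.

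**Figure D2:**
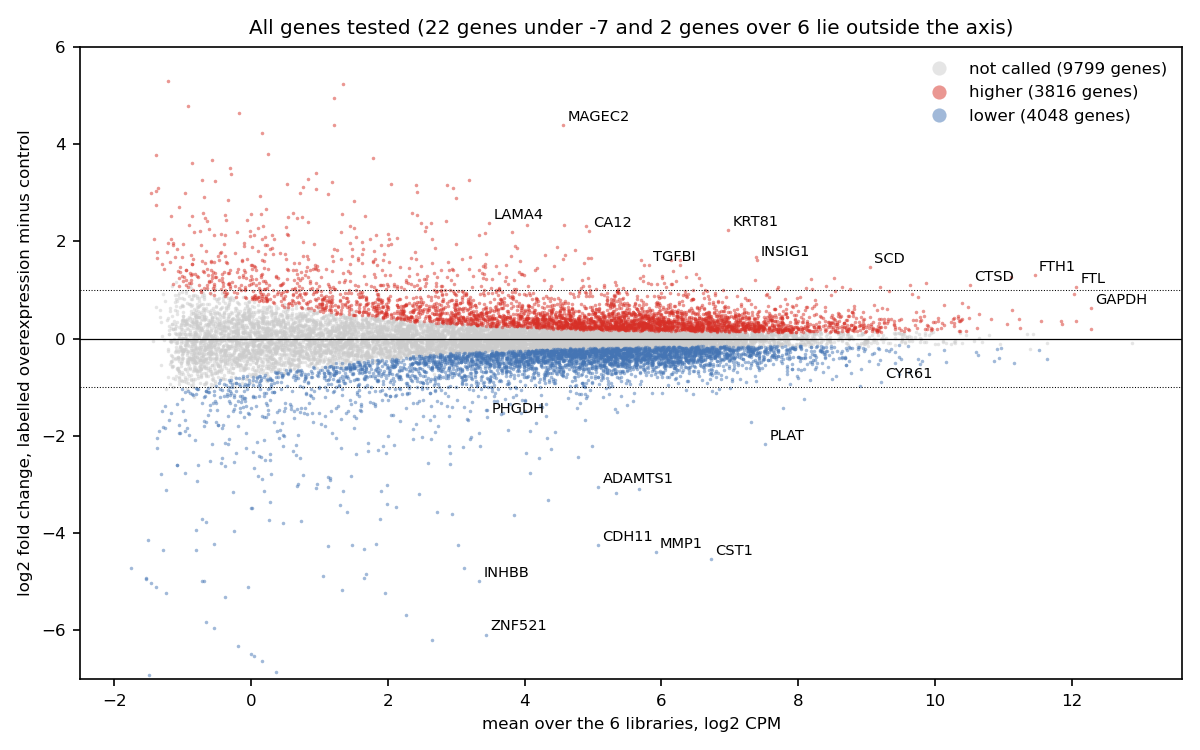
Log2 fold change of each of the 17663 genes tested against its mean level over the 6 libraries, with 3816 genes called higher in red, 4048 called lower in blue and 9799 not called in grey. The dotted lines mark 2-fold; the labelled falls ZNF521, INHBB, CST1, MMP1 and CDH11 lie under -4, MAGEC2 is the labelled rise over 4, and 22 genes below -7 and 2 genes above 6 lie outside the axis.

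The deepest losses were genes that were expressed in the controls and left no or almost no counts in the OE-labelled libraries. NGFR, the p75 neurotrophin receptor, stood at 44.9, 46.0 and 43.0 CPM in the controls and had 0 counts in all 3 OE-labelled libraries. CCBE1, a secreted protein known for its part in lymphatic vessel growth, stood at 26.2, 27.1 and 24.7 CPM and also had 0 counts. Taking 3 counts over the group as the limit that a count of 0 allows, NGFR was at least 917-fold lower and CCBE1 at least 535-fold lower. In a bulk library, fewer cells that express a gene and less RNA per cell cannot be told apart.

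In all, 30 genes averaging 1 CPM or more in the controls had at most 3 counts summed over the OE-labelled libraries, and 16 of them had 0. They included MAGEC1, a cancer-testis antigen (968 counts over the controls, at least 308-fold lower), the kinase gene NRK (765 counts, at least 245-fold), the death-associated protein kinase gene DAPK1 (394 counts, at least 125-fold), the signalling scaffold gene CNKSR2 (323 counts, at least 102-fold) and COX7B2 (265 counts, at least 85.0-fold). CXCR4, the receptor of the chemokine CXCL12, had 896 counts in the controls and 1 in the OE-labelled libraries, a ratio of 859 per sequencing depth with an exact 95% counting interval of 154 to 33973. NAP1L3 had 380 counts against 2, a ratio of 182 (50.1 to 1510). In the opposite direction 3 genes qualified. Of these, MAPK4, an atypical MAP kinase, had 0 counts in the controls and 4.34, 4.92 and 5.19 CPM in the OE-labelled libraries, at least 103-fold higher. These bounds and intervals cover counting error only.

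Among genes averaging 10 CPM or more whose transcripts stayed detectable, CST1 changed from 203, 199 and 204 CPM to 8.93, 7.60 and 9.75 CPM. It encodes cystatin SN, a secreted inhibitor of cysteine proteases, and it fell by 4.53 (standard error 0.082, adjusted p = 9.10e-21, edgeR). Its relative CST4 fell by 3.17, from 72.7, 73.1 and 73.4 CPM to 6.66, 7.51 and 10.2 CPM. Reads of such close relatives may be split between them by the counting, so the share of each is uncertain, but neither group overlapped the other in either gene.

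MMP1, the interstitial collagenase, had 109, 115 and 121 CPM in the controls and 4.85, 5.74 and 5.77 CPM in the OE-labelled libraries, a fall of 4.40 (standard error 0.089, adjusted p = 5.28e-20, edgeR). CDH11, a cadherin of mesenchymal cells, went from 69.1, 61.1 and 60.9 CPM to 3.35, 4.01 and 2.57 CPM, a fall of 4.25. Every OE-labelled library lay more than 10-fold under every control for both genes. ZNF521, a zinc finger transcription factor gene, went from 21.6, 20.8 and 21.5 CPM to 0.310, 0.345 and 0.262 CPM (fell by 6.08). INHBB, which encodes a subunit of activin B, went from 19.7, 20.5 and 18.6 CPM to 0.877, 0.734 and 0.210 CPM (fell by 4.98), with the lowest value in library 3.

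The other large falls were in a phosphodiesterase gene (PDE1C, -3.63), the protease gene PAPPA, which frees insulin-like growth factors from a binding protein (-3.32), the planar polarity receptor gene PTK7 (-3.09, from 91.6, 89.9 and 91.1 to 10.8, 10.1 and 11.1 CPM), the matrix protease gene ADAMTS1 (-3.05, from 57.6, 63.3 and 60.0 to 7.69, 7.38 and 6.76 CPM), the host transcript of miR-137 (MIR137HG, -2.77) and the histone genes HIST1H2AC (-2.45) and HIST1H1C (-2.44). None of these had overlapping groups, which the rule that chose them required.

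Among genes averaging 10 CPM or more, the largest rise was that of MAGEC2, which alone exceeded a log2 fold change of 3. MAGEC2, a cancer-testis antigen like MAGEC1, measured 1.69, 2.65 and 2.15 CPM in the controls against 47.0, 44.5 and 44.3 CPM in the OE-labelled libraries, a rise of 4.40 (standard error 0.12, adjusted p = 9.91e-18, edgeR). Thus MAGEC1 was lost and MAGEC2 gained in the same libraries. The near-identical family members MAGED4 and MAGED4B rose by 2.13 and 2.18, and their separate values are uncertain.

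LAMA4, a laminin chain of vessel basement membranes, rose by 2.37, from 4.28, 3.05 and 3.41 CPM to 20.3, 17.4 and 18.6 CPM. NOX5, a calcium-activated NADPH oxidase, rose by 2.33, from 10.9, 9.15 and 9.62 CPM to 48.3, 48.7 and 52.6 CPM. CA12, a carbonic anhydrase at the cell surface, rose by 2.21, from 10.7, 10.7 and 11.4 CPM to 54.8, 48.7 and 48.1 CPM. All 3 were several-fold higher in every OE-labelled library. The remaining rises of this size were in KCNAB2, a potassium channel subunit (2.34), the kinase gene CDK15 (2.33), the hair keratin KRT81 (2.24), ALDH3A1, which oxidises aldehydes (2.19), the actin-bundling protein gene LCP1 (1.92), CD22 (1.88), SCARA3 (1.86), the RNA-binding protein gene RBM47 (1.83) and NINJ2 (1.73).

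**Figure D3:**
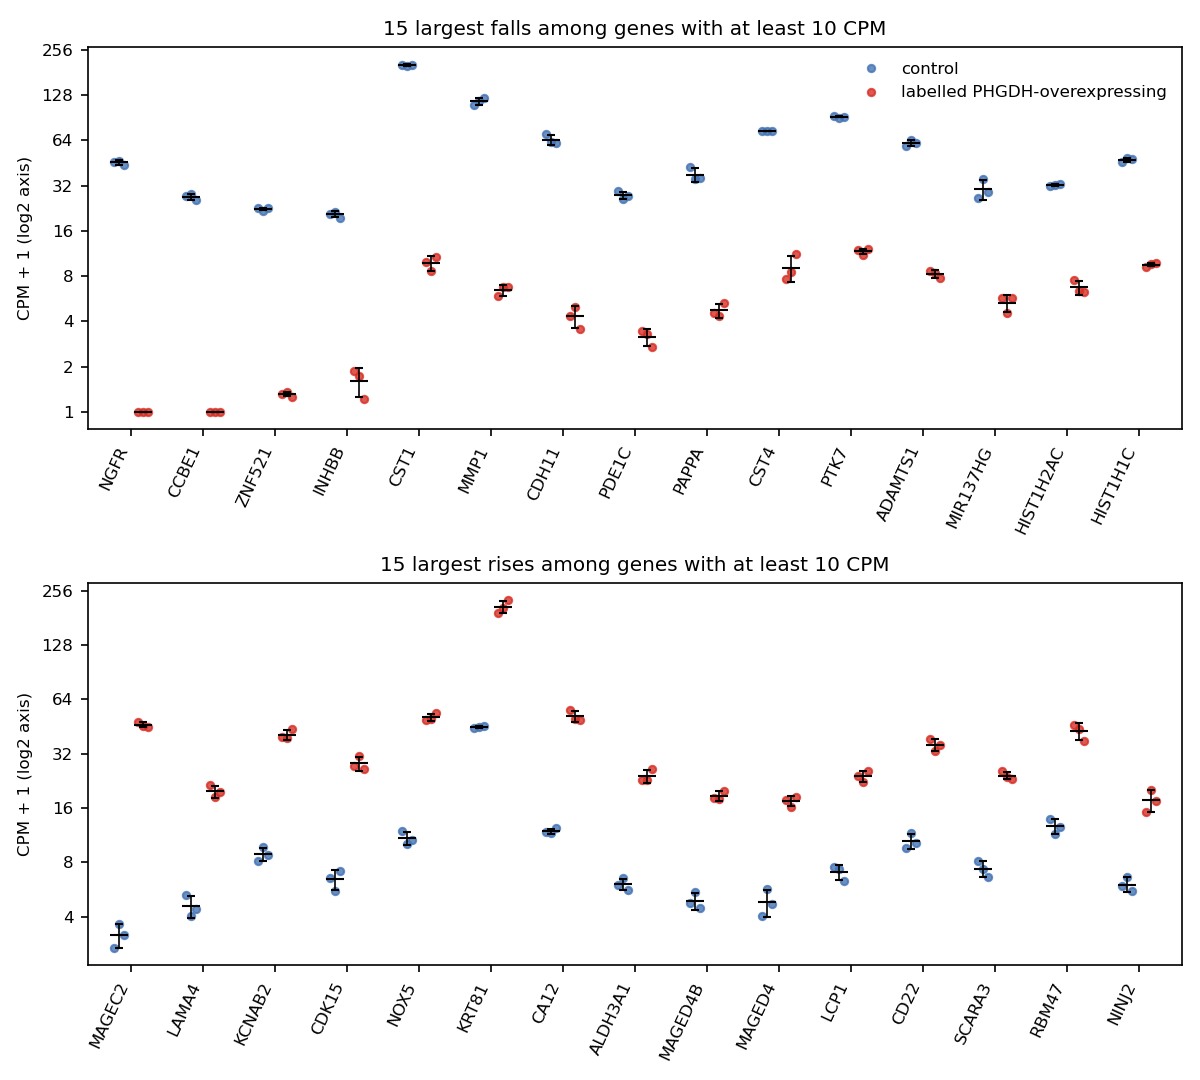
CPM plus 1 on a log2 axis for the 15 genes with the largest falls (top) and the 15 with the largest rises (bottom) among called genes averaging 10 CPM or more, 1 point per library with the mean and SD of each group. NGFR and CCBE1 lie at 0 CPM in the 3 OE-labelled libraries, and MAGEC2 shows the widest gap of the rises.

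The genes of cholesterol synthesis rose as a group. All 25 members of the list were tested and all 25 were called higher, beside 21.6% of all genes tested, and their median log2 fold change was 0.57. Under the 12 other settings 22 to 25 were called higher and none lower. INSIG1, the sterol-regulated protein that holds back the transcription factor SREBP, had 90.7, 75.2 and 82.1 CPM in the controls and 265, 268 and 229 CPM in the OE-labelled libraries (log2 fold change 1.62, standard error 0.073, adjusted p = 8.89e-14, edgeR). No library of one group came near the other. EBP, a sterol isomerase, rose by 1.39, from 36.8, 40.0 and 42.7 CPM to 101, 104 and 109 CPM. The cyclase LSS rose by 1.01 and the last enzyme of the pathway, DHCR7, by 0.99. The regulator SREBF2, named after its value was seen, rose by 0.47. Only STARD4, also named afterwards, had overlapping groups. Summed over the list, the level was 1915 ± 101 CPM (SD, n = 3) in the controls and 3042 ± 39.4 CPM (SD, n = 3) in the OE-labelled libraries.

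Fatty acid synthesis moved the same way. Of 18 tested members 11 rose and 1 fell, with a median of 0.47. SCD, the desaturase that makes oleate, had 332, 246 and 261 CPM in the controls and 801, 755 and 779 CPM in the OE-labelled libraries. The highest control was library 1, still under every OE-labelled library, and SCD rose by 1.48 (standard error 0.080, adjusted p = 1.93e-12, edgeR). The regulator SREBF1 rose by 0.98, the fatty acid synthase gene FASN by 0.97, the desaturase gene FADS2 by 0.87 and the malic enzyme gene ME1, a source of NADPH, by 0.81. ACSL4, which activates polyunsaturated fatty acids, fell by 0.30.

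Targets of NRF2, the transcription factor of the oxidative stress response, and glutathione genes rose in 24 of 27 tested members (88.9% called) with none lower and a median of 0.54. The exceptions were NFE2L2, which encodes NRF2 itself (-0.11), its inhibitor KEAP1 (-0.08) and GPX1 (0.05). HMOX1, haem oxygenase, measured 12.7, 15.5 and 14.2 CPM in the controls against 31.5, 32.2 and 34.7 CPM in the OE-labelled libraries, so each OE-labelled library was about 2-fold over the highest control. It rose by 1.22 (standard error 0.090, adjusted p = 3.01e-10, edgeR). Ferritin heavy chain FTH1 rose by 1.31, from 1363, 1652 and 1827 CPM to 3973, 4175 and 3870.0 CPM, and light chain FTL by 1.07, from 2455, 2842 and 2975 CPM to 5607, 5966 and 5773 CPM. FTH1 has many processed pseudogenes, so part of its reads may be counted elsewhere. Of 25 FTH1 pseudogenes in the data 8 were tested, and all 8 were called higher. Several were near the detection limit in the controls, such as FTH1P12 (0.165, 0.350 and 0.501 CPM). These may have passed the filter only through the OE-labelled libraries, so the count is no separate support for the rise of FTH1. AKR1B10 (2.14, at most 6.24 CPM) and AKR1C1 (1.66) reduce aldehydes and steroids, and AKR1C1 shares reads with close relatives.

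Glycolysis genes rose in 19 of 25 tested members, with 1 lower and a median of 0.37. PKM, pyruvate kinase, had 2898, 2854 and 2913 CPM in the controls and 5368, 5137 and 5974 CPM in the OE-labelled libraries (log2 fold change 0.93, standard error 0.060, adjusted p = 3.24e-11, edgeR). The groups were far apart. The 3 phosphofructokinase isoforms all rose: PFKM by 0.53, PFKP by 0.47 and PFKL by 0.30. PFKFB4, which makes the allosteric activator of phosphofructokinase, rose by 0.96, the hexokinase HK1 by 0.64, ENO2 by 0.67 and GAPDH by 0.63. HK2, the other main hexokinase, was the member that fell, by 0.71, from 142, 125 and 128 CPM to 85.8, 79.4 and 76.7 CPM. LDHA (0.08) and the glucose transporter gene SLC2A1 (0.10) were not called and were named after their values were seen.

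Of 24 citric acid cycle and linked genes, 16 rose and 3 fell (79.2% called, median 0.25). The rises were led by citrate synthase CS (0.69, from 195, 189 and 191 to 313, 294 and 324 CPM) and IDH3A (0.65). Among those that fell were SUCLA2 (-0.38) and MDH1 (-0.34). Nuclear genes of the respiratory chain had 12 of 28 higher and 3 lower (53.6% called, median 0.12). COX5A had the largest rise (0.88, from 67.4, 70.8 and 77.8 to 131, 133 and 134 CPM). Of 30 ribosomal protein genes 25 rose and none fell (83.3% called, median 0.29), with RPLP1 (0.85) and RPS3 (0.69) at the top. Over all genes tested 44.5% were called and 21.6% were higher. At 100 to 500 CPM 61.8% were called, with 737 of 2022 genes higher, and over 500 CPM 121 of 245 genes were higher. The share of respiratory chain genes called was therefore not above that of abundant genes.

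The 13 mRNAs encoded in the mitochondrial genome went the other way: 11 were called lower and none higher, with a median of -0.42. The spread among the controls was wide. Mitochondrial mRNAs made up 1.51%, 2.48% and 2.05% of counts in controls 1 to 3 and 1.48%, 1.39% and 1.51% in the OE-labelled libraries. Control 1 therefore lay at the level of the OE-labelled libraries, and the groups were free of overlap for MT-ND1 alone (626, 1122 and 905 CPM against 512, 489.9 and 609 CPM, log2 fold change -0.72). Without control 2 the number called lower was 7 and the median -0.25, without control 1 it was 12 and -0.60, and with DESeq2 only 1 of 13 was called.

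**Figure D4:**
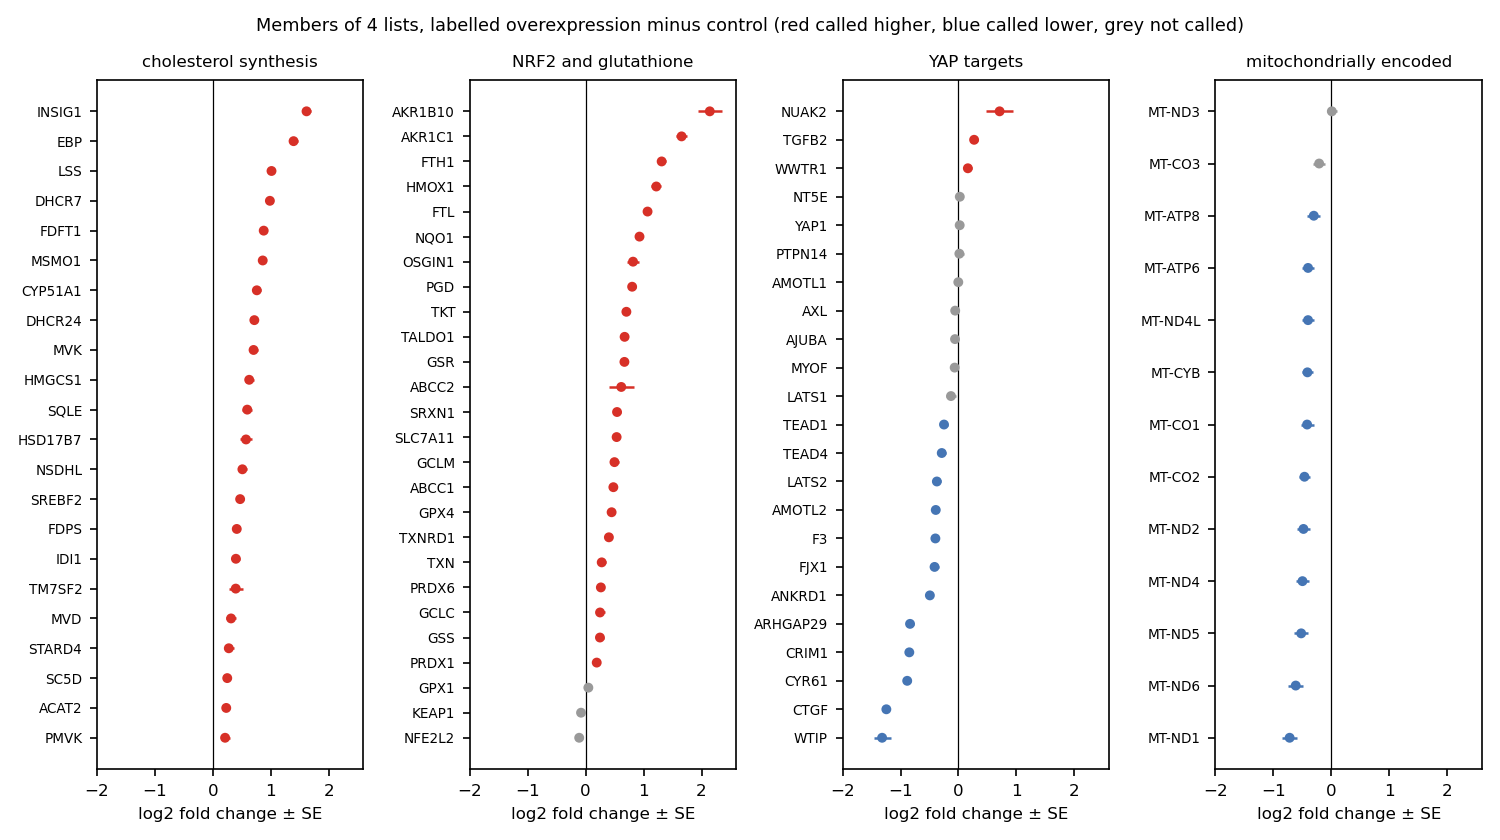
Log2 fold change with its standard error for 84 tested members of 4 lists, red for called higher, blue for called lower and grey for not called. The 22 cholesterol genes drawn lie right of 0, 23 of the 26 NRF2 and glutathione genes drawn are called higher, 12 of 23 YAP genes are called lower, and 11 of 13 mitochondrially encoded mRNAs are called lower, with overlap between groups in all but MT-ND1.

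Among amino acid transporters, 8 of 21 tested rose and 7 fell (71.4% called), and the median lay within 0.1 of 0. SLC1A4, a carrier of serine and alanine, measured 17.1, 19.9 and 18.1 CPM in the controls against 8.83, 6.82 and 7.92 CPM in the OE-labelled libraries. Every OE-labelled library lay below every control, and SLC1A4 fell by 1.23 (standard error 0.11, adjusted p = 8.67e-09, edgeR). SLC38A2, another carrier of small neutral amino acids, fell by 0.41, and the lysosomal carrier gene SLC36A4 by 0.68. SLC7A11, the cystine importer, rose by 0.53, from 192, 191 and 169 CPM to 251, 287 and 262 CPM, and SLC6A6, which carries taurine, by 0.54. SLC1A5, the glutamine and serine carrier, was not called (0.09, standard error 0.061).

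ATF4 is the transcription factor of amino acid shortage and drives PHGDH, PSAT1 and ASNS among others. Of 30 tested genes of its response, 13 rose and 3 fell (53.3% called, median 0.13). ATF4 itself was not called (0.05, standard error 0.056). DDIT4, an inhibitor of mTORC1, measured 40.1, 34.9 and 39.2 CPM in the controls against 115, 119.6 and 115 CPM in the OE-labelled libraries, a rise of 1.61 (standard error 0.069, adjusted p = 2.79e-14, edgeR) and the largest of the list beside NUPR1 (2.31, at most 9.97 CPM). TRIB3 rose by 0.95, CEBPB by 0.79 and DDIT3, which encodes CHOP, by 0.63. The amino acid enzyme ASNS, by contrast, rose by 0.21 with an adjusted p of 0.0286 (edgeR) and lost its call under 4 settings, among them without control 1 (adjusted p = 0.214). CHAC1 fell by 0.78 and PPP1R15A by 0.39. So stress regulators held the larger rises of the list, but other members went the other way, CHAC1 and PPP1R15A among them. CHAC1 averaged under the 5 CPM asked of members named by the rule.

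Cytosolic aminoacyl-tRNA synthetases, many of them targets of the same factor, had 4 of 20 higher and 4 lower (40.0% called). NARS fell by 0.71, from 139.8, 139 and 141 CPM to 88.1, 87.3 and 82.1 CPM, while the largest rise was that of MARS (0.29). Purine and pyrimidine synthesis likewise had 4 of 20 higher and 4 lower, but 10 lower with scaling by library totals. PPAT, the first enzyme of purine synthesis, fell by 0.36 and IMPDH2 rose by 0.30. With the TMM factors both lists lay near the background of 44.5%.

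The hexosamine pathway turns fructose 6-phosphate into UDP-N-acetylglucosamine, from which sialic acid is made. Of 19 tested genes of these routes 4 rose and 8 fell (median -0.09). GFPT1, the entry enzyme, was not called (-0.04, standard error 0.063), and its relative GFPT2 rose by 0.47. UAP1, which makes UDP-N-acetylglucosamine, had 159.6, 169 and 173 CPM in the controls and 94.3, 96.7 and 90.7 CPM in the OE-labelled libraries, and fell by 0.83 (standard error 0.060, adjusted p = 2.25e-10, edgeR). GNPDA1, which runs the entry step backwards, rose by 0.77, from 55.6, 56.5 and 62.7 CPM to 100.1, 97.6 and 101 CPM. Among sialic acid enzymes, GNE rose by 0.31, while NANS (0.14) and CMAS (0.13) were not called. The carrier of activated sialic acid into the Golgi, SLC35A1, fell by 0.55. Of 15 sialyltransferases, 7 rose and 1 fell (53.3% called): ST3GAL6 fell by 0.80, from 43.5, 41.2 and 39.8 CPM to 24.4, 23.1 and 23.9 CPM, and ST3GAL4 rose by 0.51 and ST6GAL1 by 0.48.

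Integrins that bind the RGD sequence of matrix proteins were mostly lower. Of 6 tested subunits 4 fell and 1 rose. ITGAV, the alpha-v subunit, had 140.0, 121 and 112 CPM in the controls and 85.4, 91.4 and 81.3 CPM in the OE-labelled libraries, without overlap, and fell by 0.53 (standard error 0.074, adjusted p = 4.51e-06, edgeR). Its partner ITGB3 was at 3.62, 3.25 and 4.26 CPM against 4.49, 4.62 and 5.40 CPM, which was not called (log2 fold change 0.38, adjusted p = 0.0612, edgeR) and was called without control 3 (adjusted p = 0.0383). ITGB1 fell by 0.46, ITGB5 by 0.21 and ITGB8 by 1.00, while ITGA5 rose by 0.26. The ITGB5 call was lost without OE-labelled library 1. Of 6 other integrin subunits tested, 4 fell and 1 rose. ITGA6, a laminin receptor subunit, fell by 0.97, from 681, 616 and 604 CPM to 326, 339 and 305 CPM, and its partner ITGB4 rose by 0.57.

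Matrix proteases and their inhibitors split, with 12 of 24 higher and 6 lower (75.0% called). Besides MMP1 and ADAMTS1, ADAMTS6 fell by 2.06, the sheddase gene ADAM17 by 0.43 and ADAM10 by 0.25. CTSD, a lysosomal aspartic protease, rose by 1.11, from 918, 938 and 899.8 CPM to 1967, 1869 and 2118 CPM. The metalloprotease inhibitors TIMP1 and TIMP3 rose by 0.82 and 0.54, and TIMP1 went from 152, 167 and 166 CPM to 286, 273 and 297 CPM. Membrane-bound MMP16 rose by 0.84. TIMP4 rose too, by 1.11, whereas TIMP2 fell by 0.20, so the inhibitors did not all share a direction.

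In the plasminogen system 3 of 9 tested genes rose and 4 fell. PLAT, tissue plasminogen activator, had 301, 306 and 291 CPM in the controls and 65.2, 64.8 and 68.9 CPM in the OE-labelled libraries, a fall of 2.18 (standard error 0.060, adjusted p = 1.04e-17, edgeR), with narrow groups on both sides. PLAU, the urokinase gene, rose by 0.50, from 225, 216 and 225 CPM to 306, 315 and 321 CPM, while its receptor gene PLAUR fell by 0.64. The inhibitor gene SERPINE2 rose by 0.57.

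Structural matrix genes moved in both directions. Of 13 laminin and basement membrane genes 6 rose and 3 fell. Beside LAMA4 they included the perlecan gene HSPG2 (0.86), LAMB1 (0.68), LAMB3 (-0.70) and LAMB2 (-0.61). Of 21 collagens 9 rose and 5 fell, with COL8A1 down by 0.92, from 143, 129.8 and 126 CPM to 69.9, 74.3 and 66.3 CPM, and COL6A1 (0.57) and COL18A1 (0.50) up. In the matricellular list 7 of 21 rose and 7 fell. TGFBI, a secreted TGF-beta-induced protein, rose by 1.51, from 29.3, 29.3 and 29.6 CPM to 80.1, 84.1 and 86.7 CPM, and EFEMP1 fell by 0.98. LOX, which cross-links collagen, fell by 0.78.

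Keratins rose in 7 of 8 tested members, none fell, and their median was 0.84. KRT81 had 43.6, 44.2 and 44.3 CPM in the controls and 193, 205 and 226 CPM in the OE-labelled libraries (standard error 0.068, adjusted p = 5.70e-17, edgeR), and its relative KRT86, which may share reads with it, rose by 1.69. The simple epithelial keratins KRT7, KRT8 and KRT18 rose by 1.23, 0.61 and 0.54, and KRT7 went from 172, 170.4 and 180.5 CPM to 393, 389.9 and 441 CPM. Keratins apart, epithelial junction genes had 4 of 21 higher and 9 lower: CLDN4 rose by 0.88 and the desmosomal gene DSP fell by 0.83, from 109, 86.7 and 84.9 CPM to 55.6, 50.6 and 52.2 CPM. Of 15 mesenchymal genes 5 rose and 6 fell. The transcription factor genes ZEB1 (-0.48) and ZEB2 (-0.84) fell with CDH11, while S100A4 (1.07, from 374, 364 and 401 to 790.2, 816 and 786 CPM) and VIM (0.37) rose. Neither set moved as a block.

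Targets and regulators of YAP, a coactivator that responds to cell spreading and stiffness, were more often lower than higher. Of 23 tested genes of the list 12 fell and 3 rose (65.2% called, median -0.25). CTGF (CCN2) had 348, 412 and 388 CPM in the controls and 161, 166 and 157 CPM in the OE-labelled libraries, a fall of 1.24 (standard error 0.064, adjusted p = 7.06e-13, edgeR). CYR61 (CCN1) fell by 0.88, from 689, 835 and 778 CPM to 425, 409 and 412 CPM. In both genes the lowest control lay well above every OE-labelled library. ANKRD1 fell by 0.49, CRIM1 by 0.85 and ARHGAP29 by 0.84. YAP1 was not called (0.02, named after its value was seen).

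Immediate early and AP-1 genes, which respond to growth factor signalling within minutes, had 10 of 24 lower and 2 higher (median -0.20). EGR1 fell by 1.25, the ERK phosphatase gene DUSP6 by 0.63 and the feedback inhibitor gene SPRY2 by 0.64, and DUSP6 went from 307, 308 and 316 CPM to 206, 209.9 and 185 CPM. FOSL2 rose by 0.55. NF-kB targets had 10 of 22 lower and 5 higher (median -0.19), with IER3 down by 0.64 and NFKBIA, the inhibitor induced by the pathway, up by 0.49. Of 15 tested chemokines and myeloid factors 5 rose and 4 fell. CXCL8 (interleukin 8) went from 8.86, 11.3 and 10.7 CPM to 2.12, 1.99 and 1.05 CPM (fell by 2.56), IL11 fell by 0.91, and CSF1, the growth factor of macrophages, rose by 0.83, from 184, 175 and 184 CPM to 334, 308 and 327 CPM.

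In the TGF-beta and BMP list 8 of 28 rose and 11 fell. ID1, a direct BMP target, had 34.3, 37.7 and 40.3 CPM in the controls and 91.3, 91.2 and 93.2 CPM in the OE-labelled libraries (log2 fold change 1.30, standard error 0.071, adjusted p = 1.93e-12, edgeR), and ID3 rose by 1.08. The secreted BMP antagonist noggin (NOG) fell by 1.06, from 37.6, 44.2 and 44.2 CPM to 19.1, 20.1 and 21.1 CPM, and the activin antagonist follistatin (FST) fell by 1.11. The receptor genes TGFBR1 and TGFBR2 were lower as well, by 0.52 and 0.48. Of the 8 SMAD genes of the closing section 5 were lower and none higher, with SMAD6 down by 0.76 and SMAD7 by 0.54. The rises of ID1 and ID3 were thus not shared by these genes of the pathway.

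Hypoxia genes had 7 of 23 higher and 9 lower, and the sign of their median depended on the scaling. VEGFA went from 185, 212 and 191 CPM to 114, 101 and 101 CPM (fell by 0.90), and BNIP3L fell by 0.78, while CA12 and DDIT4 were among those that rose, with EPAS1, the gene of HIF-2 alpha (0.84). In the VEGF and neuropilin list 6 of 15 rose and 6 fell, with KDR down by 0.85 and PLXND1 up by 0.87. Notch genes had 4 of 17 higher and 5 lower. NOTCH1 fell by 0.42 and the ligand JAG1 by 0.28. Larger changes lay at low levels and ran both ways: NOTCH4 fell by 1.06, the ligand JAG2 rose by 1.42, to 5.06, 4.84 and 6.55 CPM, and the target gene HEYL by 2.53, from 0.124, 0.150 and 0.200 CPM to 0.877, 0.734 and 1.21 CPM. Of 18 receptor tyrosine kinases 5 rose and 7 fell. TYRO3 (0.59) and EPHB2 (0.51) were among the rises, and the largest fall was that of the collagen receptor gene DDR2 (-0.97), from 2.22, 1.55 and 1.95 CPM to 0.981, 0.863 and 1.10 CPM.

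Of 23 antigen presentation genes 10 rose and 6 fell. The class II gene HLA-DRA had 22.1, 22.6 and 23.5 CPM in the controls and 48.5, 47.2 and 49.9 CPM in the OE-labelled libraries (log2 fold change 1.10, standard error 0.074, adjusted p = 6.44e-11, edgeR), and HLA-DRB1 (0.82), HLA-DMA (0.59) and the class II chaperone CD74 (0.48) rose with it. The class I genes HLA-B (-0.30), HLA-C (-0.31) and HLA-E (-0.26) fell, as did the peptide transporter gene TAP2 (-0.38) and TAPBP (-0.34). The class I gene HLA-F, with 0.577, 0.950 and 0.601 CPM in controls 1 to 3 against 1.60, 7.94 and 5.40 CPM, was called higher, with a wide spread among the OE-labelled libraries. HLA genes are alike in sequence, so reads may be split among them. Interferon-stimulated genes had 12 of 35 higher and 6 lower (51.4% called), with OASL up by 0.93 and the RNA sensor gene DDX58 down by 0.57.

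Autophagy and lysosome genes had 11 of 22 higher and 1 lower (median 0.19). SQSTM1, the autophagy receptor p62, had 478, 515 and 508 CPM in the controls and 1073, 1028 and 1152 CPM in the OE-labelled libraries, a rise of 1.12. TFE3, a transcription factor of lysosome genes, rose by 1.00, from 76.2, 81.5 and 79.8 CPM to 157, 153 and 165 CPM, and HEXA by 0.93, while MITF of the same factor family fell by 0.97. SQSTM1 is listed beside C5orf45, which neighbours it in the genome and rose by 1.06. In the same way BEST1, the neighbour of FTH1, rose by 1.27. Whether the counting used strand was not given in the sources used here, so the reads of such neighbours cannot be told apart. Other abundant genes that passed 2-fold were PLP2 (1.02) and the cold-inducible RNA-binding protein gene RBM3 (1.26).

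Histone genes were lower in 10 of 13 tested members and higher in 1, with a median of -1.12. HIST1H1C, a linker histone gene, measured 44.9, 47.6 and 46.8 CPM in the controls against 8.26, 8.59 and 8.76 CPM in the OE-labelled libraries (standard error 0.085, adjusted p = 8.87e-16, edgeR), and HIST1H2BK 52.3, 50.7 and 53.8 CPM against 11.5, 12.4 and 10.2 CPM. The groups were more than 3-fold apart in both. The list also holds the replacement histones H3F3A (-0.24), H3F3B (-0.25) and H1F0, the member that rose (0.24). Histone mRNAs of the replication-dependent kind mostly lack a poly(A) tail, and the libraries were made from poly(A) RNA, so these counts reflect the tailed fraction. Histone genes are also near-identical copies, and their separate values are uncertain.

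Mitosis genes had 14 of 29 higher and 3 lower (58.6% called, median 0.10), led by PRC1 (0.65), KIF23 (0.55) and FOXM1 (0.43). Over all genes tested 44.5% were called, and at 100 to 500 CPM 61.8%, so the share called does not by itself set this list apart. DNA replication genes had 8 of 29 higher and 5 lower (44.8% called), with MCM7 up by 0.45 and GINS4 down by 0.48. Of 22 p53 targets 4 rose and 7 fell, with PMAIP1, a pro-apoptotic protein, down by 1.17, from 59.6, 59.6 and 56.9 CPM to 21.9, 32.1 and 23.9 CPM, and CDKN1A down by 0.33. Of 15 heat shock genes 3 rose and 7 fell: the collagen chaperone SERPINH1 rose by 0.68 and HSPB1 by 0.79, while HSP90AA1 fell by 0.33. The unfolded protein response had 9 of 23 higher and 5 lower, among them PDIA4 (0.52), XBP1 (0.50) and ATF6 (-0.36).

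**Figure D5:**
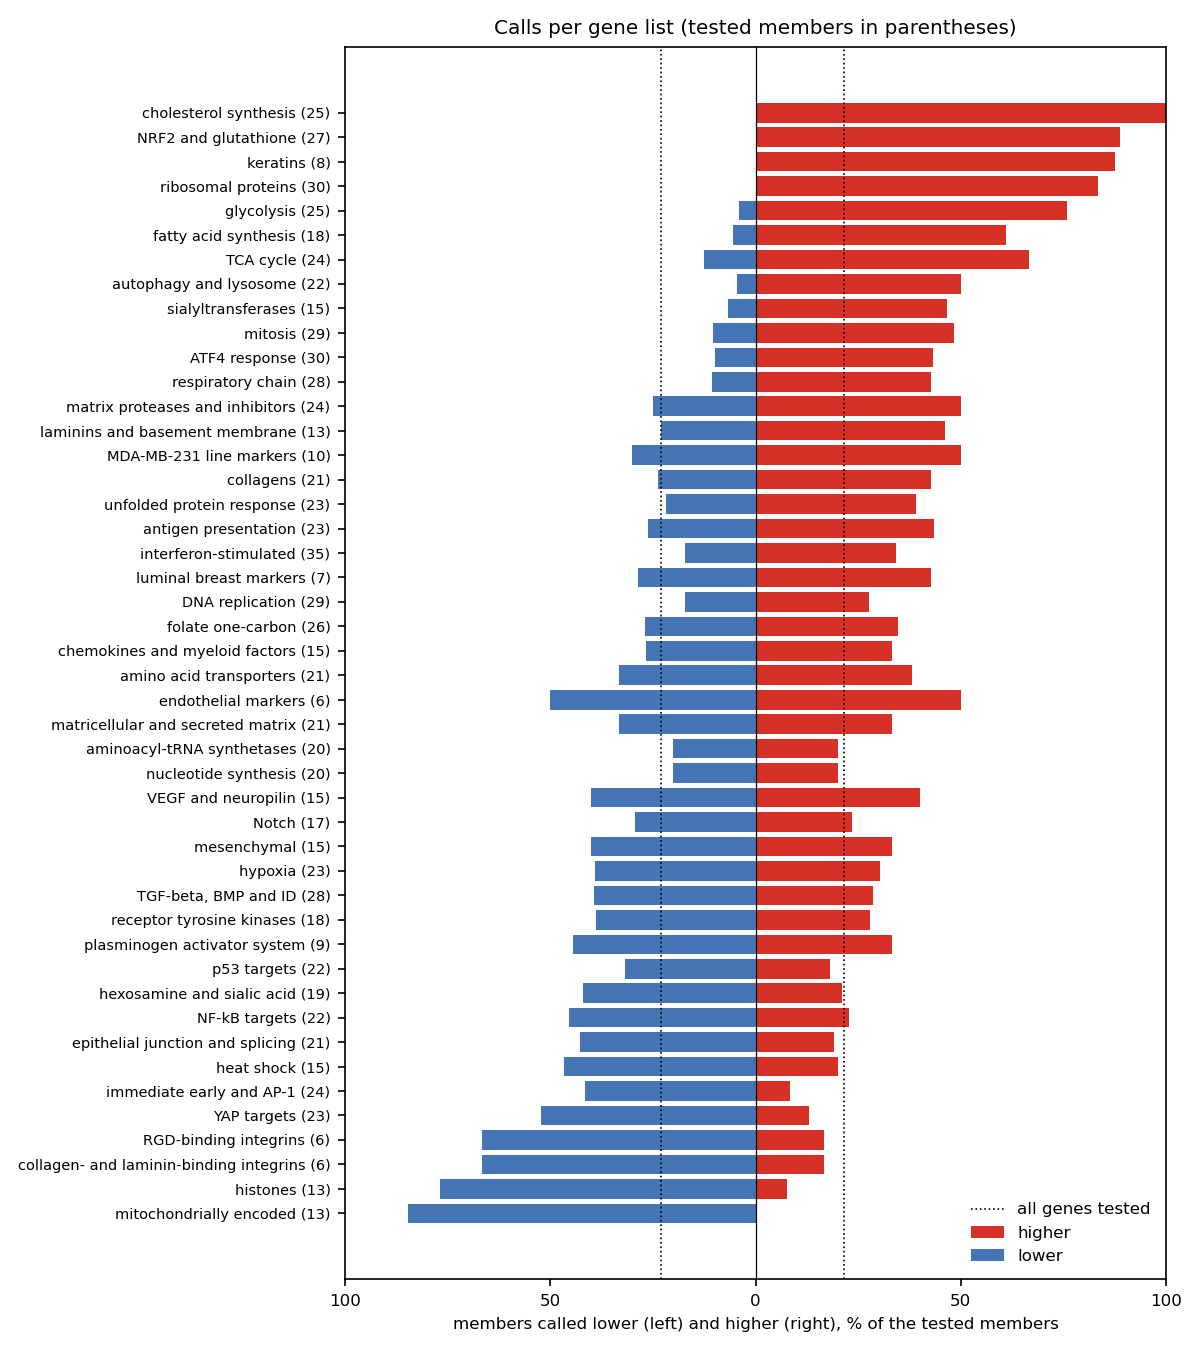
Share of tested members called lower (blue, left) and higher (red, right) for each list with at least 6 tested members, with the shares over all genes tested, 22.9% lower and 21.6% higher, as dotted lines. Cholesterol synthesis, NRF2 and glutathione, keratins, ribosomal proteins and glycolysis stand at the top, and RGD-binding integrins, histones and mitochondrially encoded mRNAs at the bottom.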

How the data were processed

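Poly(A) RNA of 6 MDA-MB-231 libraries was compared, 3 labelled control and 3 labelled PHGDH overexpression. The deposited table holds raw counts per human Ensembl gene (57992 genes), as made by the authors. The submitters' processing notes name HISAT2 2.1.0, HTSeq and Trim Galore 0.5.0; the human build, the annotation and the strand setting are not given in the sources used here. Summary lines, 14.3% to 15.2% of all entries, were left out of library sizes. Counts in genes came to 19.5 M to 23.8 M per library.

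Genes passing edgeR's default filter (17663) entered the quasi-likelihood F-test of edgeR 4.0.16 (R 4.3.3, TMM factors, no block). A gene was called when its p, adjusted over all genes tested by Benjamini and Hochberg, was under 0.05. Standard errors of log2 fold changes were derived from that fit, as the absolute log2 fold change divided by the square root of its F statistic. The procedure was tested on simulated data with few changed genes, balanced in direction, at a constant dispersion. That setting differs from these data, so it does not test the scaling when many genes change. The 12 alternatives were size factors by relative log expression, library totals, DESeq2 1.42.0, no filter, at least 5 CPM in 3 libraries, a replicate block and each of the 6 libraries left out in turn.

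Genes, the 49 lists and the 51 older symbols used to match them were chosen with earlier results of these data known. Named were 21 core genes, the 15 largest rises and falls with a mean of at least 10 CPM, up to 5 called members per list and direction with a mean of at least 5 CPM, 10 genes at the detection floor (at most 3 counts in a group) and the 10 most abundant genes past 2-fold; protein-coding status was not used here. Outside this rule, chosen after their values were seen, are AKR1B10, ANKRD1, CDKN1A, CHAC1, DDR2, GAPDH, GPX1, H3F3A, HEYL, HLA-E, HLA-F, JAG2, KEAP1, KRT18, LDHA, NFE2L2, NOTCH4, SLC2A1, SREBF2, STARD4, TGFBR1, TGFBR2, TIMP2, YAP1 and the families of the closing section. Human genome sequence and gene positions were not used here. Values of some single genes are not reported here; counts and medians of lists include every tested member.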

Additional observations from a re-analysis of the deposited data

How the results depend on the processing

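With a filter of at least 5 CPM in 3 libraries, which tested 12612 genes, 198 genes were higher and 180 lower at 2-fold or more, against 540 and 482. Leaving out 1 library at a time gave 3245 to 3925 genes higher and 3352 to 4183 lower, and 507 to 589 and 498 to 550 at 2-fold or more. DESeq2 gave 3357 higher and 3310 lower. Across the 12 alternatives 81.7% to 99.5% of the calls kept their call and direction. No direction of a called gene chosen by the naming rule was reversed. Genes named outside that rule are not covered by this statement. PHGDH was called lower under all 12, with a log2 fold change of -1.48 to -1.69 when a library was left out. Of the 370 called genes chosen by the naming rule, 326 kept the call under each alternative that tested them. Replicate numbers did not pair the libraries (correlation of deviations 0.038, 0.011 and -0.023 for numbers 1 to 3), and a replicate block gave 3758 higher and 4003 lower, 544 and 483 at 2-fold or more, and -1.61 for PHGDH. List counts of 5 or more moved by over 1.5 times in 11 cases: members higher ranged over 4 to 8 for amino acid transporters, 4 to 8 for sialyltransferases, 3 to 5 for chemokines and 3 to 5 for mesenchymal genes, and members lower over 1 to 12 for mitochondrially encoded mRNAs, 5 to 10 for epithelial junction genes, 4 to 9 for heat shock, 3 to 9 for interferon-stimulated genes, 3 to 7 for receptor tyrosine kinases, 3 to 8 for DNA replication and 3 to 7 for the unfolded protein response. Of smaller counts, members lower ranged over 3 to 10 for nucleotide synthesis and 1 to 6 for mitosis, and scaling by library totals called 1 NRF2 and glutathione gene and 1 keratin gene lower. The cause was not tested. Of 17 list medians within 0.1 of 0, 7 changed sign under some setting, those of amino acid transporters, aminoacyl-tRNA synthetases, DNA replication, Notch, receptor tyrosine kinases, hypoxia and endothelial markers, as did those of chemokines (0.24) and VEGF genes (-0.22) at the stricter filter. Under 1 CPM 20.6% of genes were called, against 63.7% over 500 CPM, so changes of low genes were less often detectable.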

Other observations

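Gene families that were not set up as lists were picked after their values were seen and are given as values. Some of their members, such as AKR1B10, KLF6 and HIST1H1C, also belong to lists above, so these counts partly repeat them. Over all genes tested, 21.6% were called higher and 22.9% lower. Of 9 tested aldo-keto reductases 8 were called higher and none lower (median log2 fold change 0.73). AKR1B1 measured 127, 136 and 145 CPM in the controls against 239, 240.3 and 255 CPM in the OE-labelled libraries. Of 14 aldehyde dehydrogenases 8 were higher and 3 lower. Krueppel-like transcription factor genes were called lower in 9 of 15 with none higher (median -0.34), among them KLF4 (-0.31) and KLF9 (-0.81). SMAD genes were lower in 5 of 8 with none higher (median -0.52). SR splicing factor genes were lower in 8 of 11 with none higher (median -0.20). Of 11 MAGE genes 5 were higher and 5 lower, with MAGED2 at 136, 128 and 139 CPM against 144, 146 and 162 CPM. Over the 32 tested genes named HIST1 to HIST4, 19 were lower and none higher.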
